A study of Mus musculus with 24 samples.

Results

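TCDCA and UDCA were compared directly in mouse CD8+ T cells activated in vitro, with 3 RNA-seq libraries for TCDCA and 3 for UDCA out of the 24 libraries of the series. The members were chosen by the sample titles, with earlier results of these data known. TCDCA (taurochenodeoxycholic acid) is the taurine conjugate of chenodeoxycholic acid, a primary bile acid made in the liver. UDCA (ursodeoxycholic acid) is unconjugated and is the epimer of chenodeoxycholic acid at a ring hydroxyl group. The steroid side chain of TCDCA thus ends in taurine, a sulfonated amine, and that of UDCA in a free carboxyl group.

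Bile acids are made from cholesterol, aid fat digestion, and also act as signals through nuclear receptors such as FXR and the vitamin D receptor and through the membrane receptor TGR5. Cells that take in or retain sterols lower the processing of the transcription factor SREBP2 and with it the transcription of cholesterol synthesis genes, while oxysterols activate liver X receptors, which raise sterol export. Activated CD8+ T cells depend on sterol synthesis, glycolysis and a large protein-folding capacity in the endoplasmic reticulum (ER).

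The series asked how bile acids change gene expression in T cells. The TCDCA cells received 100 µM and the UDCA cells 50 µM, and the Control libraries carry the label control with no further detail. Exposure lasted 24 h in the series' design text and is given as overnight in the treatment protocol. No strain, age or sex of the mice is given in the labels, and neither is the number of animals or cultures behind the 3 libraries of a group, so p-values reflect the spread among libraries alone, and that spread may be technical. Dose, taurine and the epimer differ together between the 2 acids, and their parts in any difference below cannot be told apart. TCDCA with UDCA was the 1 pair of acids compared gene by gene, and other pairs of acids were tested only for their counts of called genes. Each of the 2 acids is also set beside the same 3 Control libraries to show where its level lay.

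The libraries of TCDCA held 3.20e+07 to 3.34e+07 counts in genes, those of UDCA 2.87e+07 to 3.34e+07 and those of Control 3.23e+07 to 3.73e+07. Cd8a had 741 to 774 CPM (counts scaled to a common library size, with TMM) in TCDCA, 718 to 741 in UDCA and 616 to 636 in Control, and Cd4 stayed below 1 CPM throughout. The defining markers searched of B cells (Ms4a1, Cd79a), myeloid cells (Lyz2, Csf1r, Itgam, Cd14) and NK cells (Ncr1, Klrb1c) were at or near 0, as were Col1a1, Hba-a1 and Hbb-bs of stromal and erythroid cells. Other markers searched were not. Foxp3, the regulatory T cell factor, had 7.76 to 9.13 CPM in TCDCA, 7.74 to 8.47 in UDCA and 8.52 to 9.09 in Control, and Zbtb7b, a factor of the CD4+ lineage, had 33 to 34.2 CPM in TCDCA, 37.1 to 39.6 in UDCA and 39 to 43.2 in Control. The endothelial marker Pecam1 had 35.5 to 39.3 CPM in TCDCA, 35.8 to 37.2 in UDCA and 45.1 to 51.2 in Control. Exon counts made up 81.2% ± 1.5 of the library total in TCDCA and 81.3% ± 0.924 in UDCA (SD, n = 3 each; exact two-sided permutation p = 0.9, the smallest possible being 0.1). Counts of Rn45s, a ribosomal RNA precursor, were 0.628% to 0.999% of the counts in genes in TCDCA and 0.846% to 1.56% in UDCA. UDCA replicate 3 stood apart from the other UDCA libraries, with a chi-square per degree of freedom of 10.88 against replicate 1 and 8.603 against replicate 2, where replicates 1 and 2 differed by 5.075. Control replicates 1 and 3 differed by 14.91, and the TCDCA replicates by at most 5.071. In 549 of the 967 genes called between the 2 acids (56.8%), UDCA replicate 3 was the UDCA library nearest to TCDCA.

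Between the 2 acids the differences were many but small. Of 13044 genes tested, 967 (7.41%) passed the threshold between TCDCA and UDCA, which was a Benjamini-Hochberg adjusted p under 0.05 in edgeR's quasi-likelihood test, and genes past it are called here. TCDCA was higher in 462 (3.54%) and lower in 505 (3.87%). The median absolute log2 fold change of the called genes was 0.235, with 94 genes beyond 1.5-fold (0.721%) and 22 beyond 2-fold (0.169%). Without UDCA replicate 3 the test called 1055 genes, 127 of them beyond 1.5-fold. Leaving out any other library of the pair lowered the count by over 1.5 times, to 536, 627 and 582 without TCDCA replicates 1, 2 and 3 and to 560 and 494 without UDCA replicates 1 and 2. The last of these left 57 beyond 1.5-fold. In bulk RNA, fewer cells of a type and less RNA per cell cannot be told apart. Library values did not overlap between the groups in 3494 tested genes (26.8%).

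**Figure D1:**
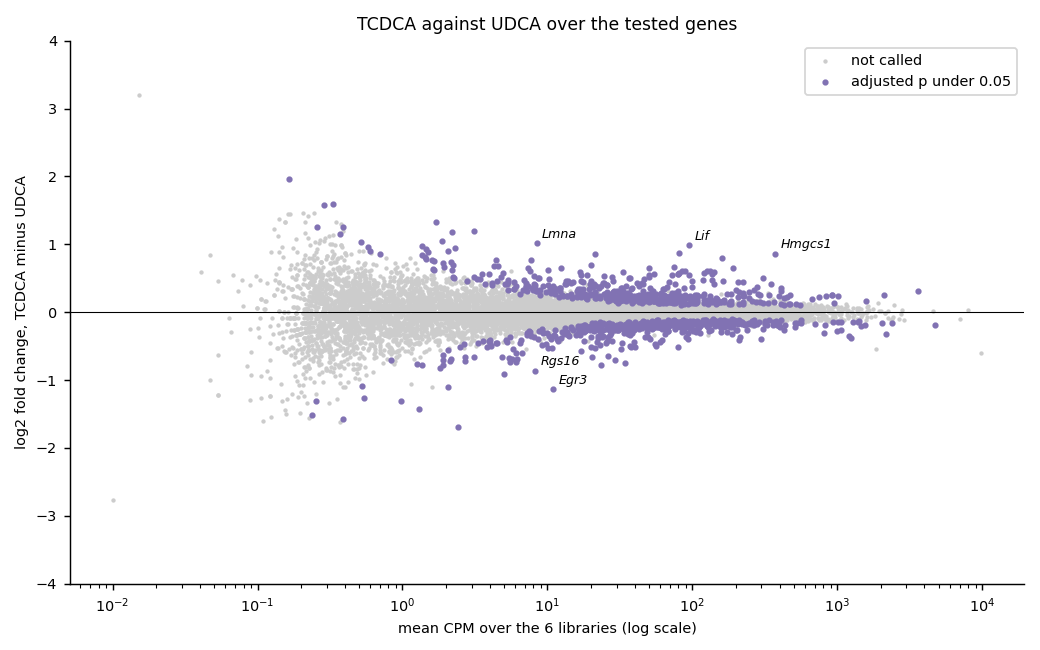
Log2 fold change of TCDCA over UDCA (vertical axis) against mean CPM over the 6 libraries (horizontal axis, log scale) for the 13044 tested genes, with the 967 called genes in purple and 5 named. Most points lie close to 0, and the widest scatter is at the lowest levels.

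For 10640 genes (81.6% of those tested) the 95% interval of the fold change lay wholly within 1.5-fold either way, and 770 of the called genes were among them. These bounded genes had a median level of 38.5 CPM, against 0.555 CPM for the 2404 other genes, so a larger difference could be missed mainly in genes of low level. Against Control, TCDCA had 1712 called genes (13.1%), 663 higher (5.08%) and 1049 lower (8.04%). Of the 1712, 271 lay beyond 1.5-fold (2.08%) and 84 beyond 2-fold (0.644%), with no overlap of libraries in 4284 tested genes (32.8%). UDCA had 2599 (19.9%), 1197 higher (9.18%) and 1402 lower (10.7%). Of the 2599, 363 lay beyond 1.5-fold (2.78%) and 121 beyond 2-fold (0.928%), with no overlap of libraries in 4534 tested genes (34.8%). These counts moved by over 1.5 times without Control replicate 2, to 898 for TCDCA and 1692 for UDCA, and the TCDCA count also fell to 1091 and 1105 without TCDCA replicates 1 and 2. Among the 28 pairs of groups in the series, TCDCA and UDCA ranked 7 from the fewest calls, between 57 for Control and TCA (taurocholic acid) and 8151 for IsoAlloLCA and TCDCA, and TCA against TCDCA had 471.

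The largest rises in TCDCA over UDCA were sought among called genes of at least 10 CPM in either group whose libraries did not overlap, of which there were 364 higher and 430 lower. Lmna (mm10 chr3:88481148-88503352), which encodes the nuclear lamina proteins lamin A and C, had 11.3, 11.9 and 10.6 CPM in TCDCA, 5.72, 5.42 and 5.6 in UDCA, and 7.43, 6.94 and 6.55 in Control. Every TCDCA library lay above every Control library, and every UDCA library lay below them. The direct difference was 1.01 ± 0.07 log2 units (SE; edgeR adjusted p = 1.54e-09), and it was made of a rise of 0.69 in TCDCA over Control (adjusted p = 1.88e-07) and a change of -0.32 in UDCA (adjusted p = 0.00512).

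Lif, a cytokine of the interleukin-6 family, had 118, 126 and 133 CPM in TCDCA, 60.7, 54.3 and 75.5 in UDCA, and 98.8, 103 and 107 in Control. The 3 groups did not overlap, and TCDCA exceeded UDCA by 0.99 ± 0.13 (adjusted p = 1.65e-05). TCDCA was not called against Control (0.29, adjusted p = 0.143). Igfbp4, a binding protein of insulin-like growth factors, had 97.5, 108 and 107 CPM in TCDCA, 53.5, 58.7 and 57.9 in UDCA and 89.6, 87 and 86.8 in Control, a log2 difference between the acids of 0.88 ± 0.06 (adjusted p = 1.5e-09). Ifitm1, an interferon-induced membrane protein gene, behaved likewise, with 192 to 209 CPM in TCDCA, 114 to 122 in UDCA and 164 to 188 in Control (0.79 ± 0.06, adjusted p = 6.22e-09). In all 4 of these genes UDCA lay below Control in every library.

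The small GTPase gene Gem had 24.6 to 30.1 CPM in TCDCA, 12.7 to 19.8 in UDCA and 29.3 to 39.5 in Control (0.86 ± 0.16 between the acids, adjusted p = 0.00139). Hemk1, a protein methyltransferase gene, differed by 0.66 ± 0.09 and Enah, an actin regulator, by 0.70 ± 0.10, with adjusted p of 1.24e-05 and 7.97e-05. Mycn, a transcription factor of the Myc family, differed by 0.65 ± 0.16 (adjusted p = 0.0119) and lost its call without TCDCA replicate 3, UDCA replicate 1 or UDCA replicate 2. Arfgef3, of a family of exchange factors for ARF GTPases, closed the 12 largest rises at 0.63 ± 0.12 (adjusted p = 0.00144), which also held Hmgcs1, Mvd and Fdps.

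Among the falls, the zinc finger transcription factor Egr3 (chr14:70077445-70082613), which T cell receptor signals induce, had 7.01, 6.89 and 6.6 CPM in TCDCA, 15.8, 15.5 and 13.6 in UDCA, and 7.99, 9.54 and 8.78 in Control. The UDCA libraries stood above all the others, and TCDCA was 1.13 ± 0.10 log2 units below UDCA (adjusted p = 1.77e-08). Its relative Egr2 was lower by 1.11 ± 0.19 (adjusted p = 0.000383), with 1.25 to 1.37 CPM in TCDCA, 2.31 to 3.33 in UDCA and 1.85 to 2.04 in Control. Arrdc3, an alpha-arrestin that limits receptor and nutrient transporter levels, had 20.7 to 24.4 CPM in TCDCA, 33.8 to 38.3 in UDCA and 19 to 25.9 in Control (-0.71 ± 0.10, adjusted p = 4.64e-05). For Arrdc3 the TCDCA and Control libraries overlapped. Slc16a10, an aromatic amino acid transporter, also stood highest in UDCA, with 15.8 to 18.9 CPM in TCDCA, 24.7 to 25.7 in UDCA and 15.7 to 16 in Control (-0.53 ± 0.08, adjusted p = 6.5e-05).

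In another set of falls it was TCDCA that left the Control level. Slamf6, a receptor of the SLAM family on T cells, had 16.7, 18.4 and 16.9 CPM in TCDCA, 31.8, 32.9 and 24.4 in UDCA, and 31.6, 32.7 and 32.3 in Control. TCDCA was lower than UDCA by 0.78 ± 0.08 (log2 fold change -0.78, adjusted p = 2.3e-07) and lower than Control in every library, while UDCA and Control did not differ past the threshold (-0.11, adjusted p = 0.312). The integrin gene Itgb3 showed the same order, at 14.5 to 17.7 CPM in TCDCA, 20.4 to 27.7 in UDCA and 23.5 to 27.5 in Control (-0.66 ± 0.13, adjusted p = 0.00167). Rgs16, which shortens G protein signals, had 5.63 to 6.09 CPM in TCDCA, 8.22 to 11.9 in UDCA and 8.4 to 9.45 in Control (-0.86 ± 0.12, adjusted p = 5.05e-05).

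Klf2, a transcription factor of resting T cells, and S1pr1, the receptor with which T cells leave lymph nodes and a known target of Klf2 in mice, were lower in TCDCA by 0.55 ± 0.15 and 0.75 ± 0.16 (log2 fold changes -0.55 and -0.75, adjusted p = 0.0251 and 0.00434). S1pr1 had 27.9, 25.1 and 23.5 CPM in TCDCA, 45.9, 51.4 and 30.5 in UDCA, and 42.1, 39.7 and 33.7 in Control, so UDCA replicate 3 lay near the TCDCA libraries. The S1pr1 call was lost without UDCA replicate 2, and the Klf2 call was kept in 1 of the 6 fits that left out a library, the one without UDCA replicate 3. With Abcg1, described with the liver X receptor targets, Rap1gap2, Gsap and Anxa1 completed the 12 largest falls at -0.58, -0.53 and -0.53, and each lost its call without at least UDCA replicate 2.

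**Figure D2:**
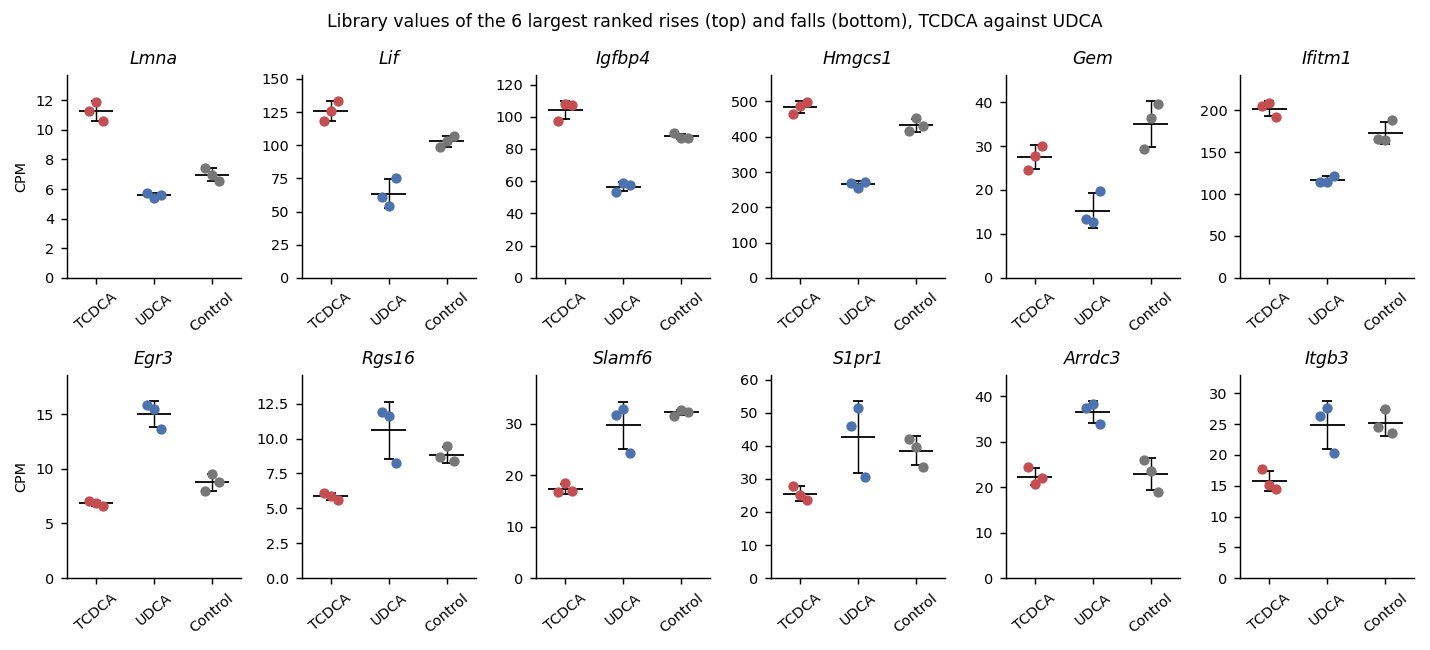
CPM of each library in TCDCA, UDCA and Control for the 6 largest rises (top row) and the 6 largest falls (bottom row) of TCDCA against UDCA, with mean and SD (n = 3 each). The TCDCA and UDCA points do not overlap in any panel, and in the bottom row UDCA replicate 3 is the lowest UDCA point.

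Genes of cholesterol synthesis were higher in TCDCA than in UDCA almost throughout. Of 28 tested genes of cholesterol synthesis and uptake, 24 were higher in TCDCA than in UDCA and 0 were lower, against 3.54% higher among all tested genes, and the median log2 fold change was 0.47, against -0.01 over all tested genes. In 26 of the 28 every TCDCA library lay above every UDCA library, where 26.8% of all tested genes had no overlap in either direction. Against Control the UDCA libraries had 25 members lower and 0 higher (median -0.39, with 10.7% of all tested genes lower), whereas TCDCA had 3 higher and 2 lower (median 0.02, with 5.08% and 8.04% of all). The count of members higher in TCDCA than in UDCA was 23 without UDCA replicate 3 and 21 to 23 over the 6 fits that left out 1 library.

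The promoters of Hmgcs1 and Mvd, which had the largest differences of the list, are shown because sterol-regulated promoters are known to pair SREBP sites with the CCAAT box of the factor NF-Y. Capitals mark CCAAT on either strand (ATTGG on the printed strand is the reverse complement) and, in Hmgcs1, the sterol element TCACNCCAC, where N is any base. The 250 bases before each start are from RefSeq, build GRCm38.p6, printed 5′ to 3′ on the strand of the gene.
Hmgcs1 promoter, chr13:119690101-119690350, plus strand: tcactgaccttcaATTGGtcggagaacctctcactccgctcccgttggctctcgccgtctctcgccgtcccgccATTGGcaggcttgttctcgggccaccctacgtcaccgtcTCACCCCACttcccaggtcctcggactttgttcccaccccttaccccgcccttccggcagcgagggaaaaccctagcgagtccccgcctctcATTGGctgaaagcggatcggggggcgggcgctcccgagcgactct
Mvd promoter, chr8:122443423-122443672, minus strand: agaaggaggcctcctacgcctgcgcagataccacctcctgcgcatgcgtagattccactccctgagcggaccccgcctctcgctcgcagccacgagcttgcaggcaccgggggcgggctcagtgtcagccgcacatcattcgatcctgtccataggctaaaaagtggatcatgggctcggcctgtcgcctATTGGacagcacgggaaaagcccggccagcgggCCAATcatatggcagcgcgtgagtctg

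Both strands were searched in the promoters of the 9909 tested genes that had one in the table. CCAAT stood in 17 of the 19 cholesterol genes with a promoter (89.5%) and in 4012 of all 9909 (40.5%). Of the 17, 15 were called higher in TCDCA, where 24 of the 28 list members were called whatever their promoter, and of the 4012, 158 were called higher and 169 lower. TCACNCCAC stood in 1 of the 19, Hmgcs1, and in 120 of all (1.21%). A match describes letters in a window and was not tested as a binding site.

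Hmgcs1 encodes the synthase that makes HMG-CoA at the head of the pathway. It had 465, 487 and 499 CPM in TCDCA, 270, 255 and 273 in UDCA, and 415, 452 and 430 in Control. TCDCA lay above Control and UDCA below it in every library, and the log2 difference between the acids was 0.86 ± 0.06 (adjusted p = 6.17e-10, a 1.82-fold difference). Against Control the rise in TCDCA did not pass the threshold (0.16, adjusted p = 0.0659), and the fall in UDCA did (-0.70, adjusted p = 1.6e-08).

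Further along the pathway, the decarboxylase Mvd had 60.3, 62.5 and 62.9 CPM in TCDCA, 40.1, 36.9 and 41.3 in UDCA and 58.2, 66.2 and 63.4 in Control (0.65 ± 0.06, adjusted p = 1.15e-07). Fdps, which makes farnesyl diphosphate, had 226 to 237 CPM in TCDCA, 142 to 156 in UDCA and 209 to 234 in Control (0.65 ± 0.06, adjusted p = 3.24e-08). For both genes TCDCA overlapped Control, and UDCA lay below them in every library. Fdft1, squalene synthase, differed by 0.54 ± 0.05 (adjusted p = 9.78e-08), and Sqle, squalene epoxidase, by 0.46 ± 0.06 (adjusted p = 4.91e-06). Idi1, the isomerase before Fdps, was 1 of the 3 genes also called higher in TCDCA than in Control (0.22, adjusted p = 0.0198), and lower in UDCA than in Control (-0.38, adjusted p = 0.000113).

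Insig1, which holds SREBP precursors in the ER, differed by 0.58 ± 0.07 (adjusted p = 1.81e-06), and Srebf2, which encodes SREBP2, by 0.12 ± 0.03 (adjusted p = 0.0252), a call lost in each of the 6 fits without a library. Lpin1, a phosphatidate phosphatase, was below Control with both acids (-0.50 in TCDCA and -0.83 in UDCA) and was higher in TCDCA by 0.33 ± 0.08 (adjusted p = 0.00563), though not without TCDCA replicate 3 (0.27). Hsd17b7, an enzyme of the late steps, was also called higher in TCDCA than in Control (0.28). Fads1, Ggps1 and Ebp were among the 4 members that did not pass, and Ebp differed by -0.00 ± 0.05 (95% interval -0.11 to 0.11).

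**Figure D3:**
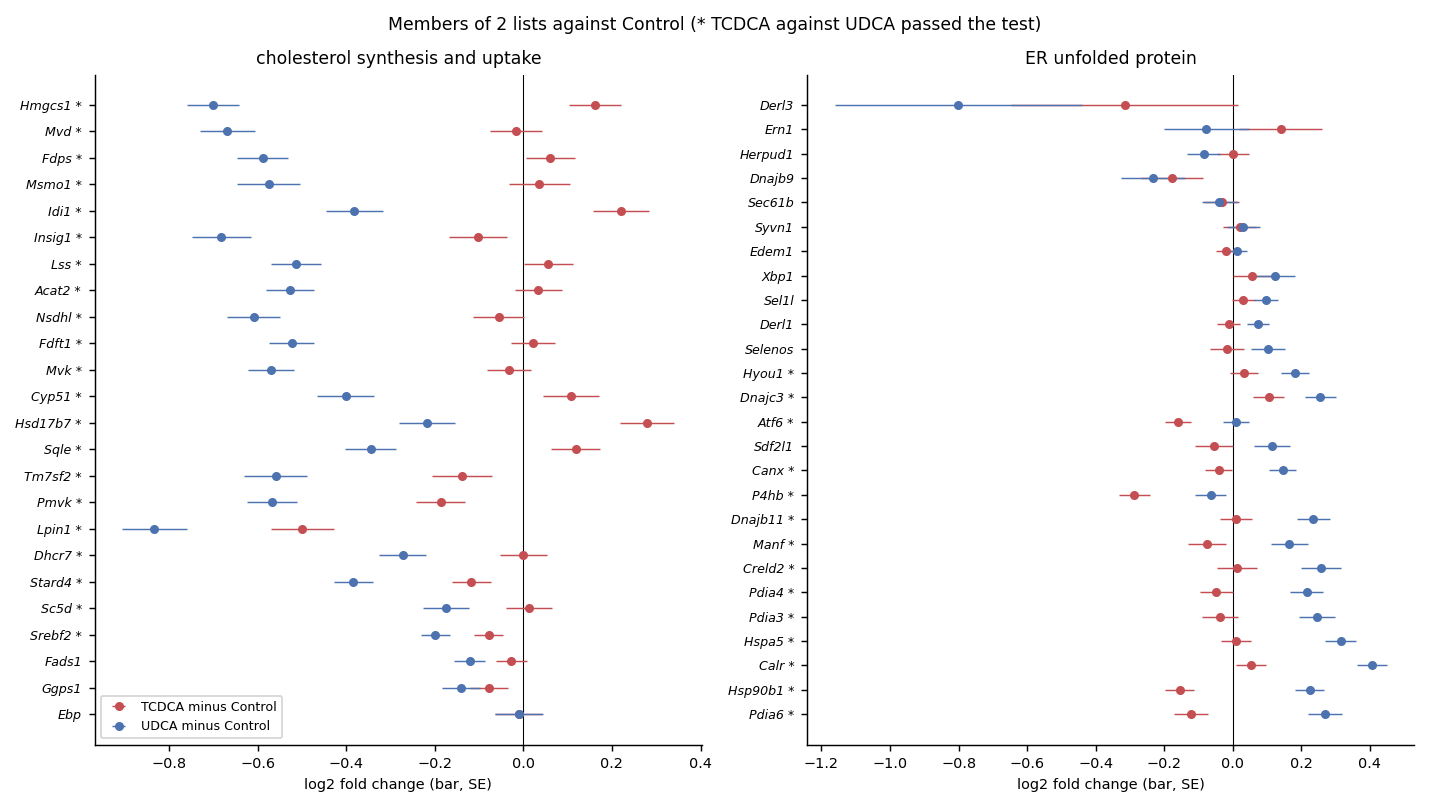
Log2 fold change against Control (horizontal axis, bars are SE) of tested members of the cholesterol list (left, 24 of the 28 genes) and the ER unfolded protein list (right, all 26 genes), for TCDCA in red and UDCA in blue, with a star where TCDCA against UDCA passed the test. In the left panel most UDCA points lie below 0 and most TCDCA points near 0, and in the right panel most starred UDCA points lie above 0 with TCDCA near or below 0.

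Of 13 tested liver X receptor targets 3 were lower in TCDCA than in UDCA and 1 was higher (3.87% and 3.54% among all tested genes), and 9 were not called, with a median of -0.03. The 3 lower were Abcg1, Abca1 and Mylip. Abcg1, which exports sterol, had 21.4, 18.3 and 21.9 CPM in TCDCA, 34.2, 33.3 and 29 in UDCA and 27, 27.9 and 27.8 in Control. All TCDCA libraries were below Control and all UDCA libraries above it, and TCDCA was lower than UDCA by 0.65 ± 0.08 (log2 fold change -0.65, adjusted p = 8.33e-06). Abca1, the exporter that loads high-density lipoprotein, was near the limit of measurement, with 0.564, 0.613 and 0.5 CPM in TCDCA, 1.24, 1.18 and 1.78 in UDCA and 0.773 to 1.02 in Control (-1.31 ± 0.23, adjusted p = 0.000533). Mylip, a ubiquitin ligase gene, was lower by 0.52 ± 0.11 (log2 fold change -0.52, adjusted p = 0.00423). The 1 higher was the desaturase Scd2 (0.17, adjusted p = 0.0331), which lost its call in 3 of the 6 fits without a library.

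Fatty acid synthesis genes were higher in TCDCA in 5 of 19 tested members and lower in 0, against 3.54% higher among all tested genes. The median of 0.07 was 0.11 without TCDCA replicate 2, 0.11 without UDCA replicate 1 and 0.04 without TCDCA replicate 3. Elovl6, an elongase, had 151, 155 and 168 CPM in TCDCA, 113, 105 and 123 in UDCA and 150 to 151 in Control (0.47 ± 0.06, adjusted p = 2.18e-05). Acly, Fads2 and Fasn, which make cytosolic acetyl-CoA, desaturate and build fatty acids, differed by 0.22, 0.25 and 0.24 (adjusted p = 0.00616, 0.0143 and 0.0157). The Fads2 and Fasn calls were lost without TCDCA replicate 3 or UDCA replicate 2. Scd1, a stearoyl-CoA desaturase gene, did not pass between the acids (0.27, 95% interval 0.06 to 0.47, adjusted p = 0.112) and was below Control with both.

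Of 22 tested fatty acid oxidation genes, 3 were lower in TCDCA and 0 higher, against 3.87% lower among all tested genes. Cpt1a, the gatekeeper of mitochondrial fatty acid entry, had 67.8, 66.1 and 63.1 CPM in TCDCA, 95.8, 97.2 and 87.1 in UDCA and 78.8, 75.5 and 73.8 in Control. The 3 groups did not overlap, TCDCA lay lowest, and the log2 difference between the acids was -0.51 ± 0.05 (adjusted p = 1.68e-07). Plin2, a lipid droplet coat gene, was lower by 0.36 ± 0.07 (log2 fold change -0.36, adjusted p = 0.00284).

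Genes for folding proteins in the ER were lower in TCDCA than in UDCA. Of 26 tested members of the unfolded protein list, 14 were lower in TCDCA than in UDCA and 0 higher, against 3.87% lower among all tested genes, and the median log2 fold change was -0.16. UDCA had 13 members above Control and 0 below, with 9.18% of all tested genes higher and 10.7% lower. TCDCA had 0 above and 3 below, with 5.08% of all tested genes higher and 8.04% lower. The share of members below Control in TCDCA is thus near that of all genes. Without UDCA replicate 3, 13 members were lower in TCDCA, and 11 to 13 were over the 6 fits that left out 1 library. The interval of 25 of the 26 members lay within 1.5-fold, so these differences were small though they passed the test.

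The promoters of Hsp90b1 and Hspa5 are printed because they carry the ER stress element, a CCAAT box spaced from CCACG that the unfolded protein sensor ATF6 is known to bind with NF-Y. Capitals mark CCAAT, any 9 bases, then CCACG, on either strand (in Hsp90b1 once on each strand). They are from RefSeq, build GRCm38.p6, with the same 250 bases before the start, 5′ to 3′ on the strand of the gene.
Hsp90b1 promoter, chr10:86705445-86705694, minus strand: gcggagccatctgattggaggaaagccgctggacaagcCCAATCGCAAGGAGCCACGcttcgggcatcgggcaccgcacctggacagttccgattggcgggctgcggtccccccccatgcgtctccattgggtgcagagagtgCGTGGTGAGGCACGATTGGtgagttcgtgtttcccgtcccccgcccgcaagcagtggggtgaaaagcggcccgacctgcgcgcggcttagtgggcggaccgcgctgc
Hspa5 promoter, chr2:34771840-34772089, plus strand: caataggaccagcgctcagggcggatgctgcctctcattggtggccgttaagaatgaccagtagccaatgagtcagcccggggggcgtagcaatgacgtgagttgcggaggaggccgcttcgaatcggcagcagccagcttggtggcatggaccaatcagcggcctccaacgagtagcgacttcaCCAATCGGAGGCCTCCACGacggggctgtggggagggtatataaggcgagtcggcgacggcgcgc

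The element contains a CCAAT, which stood alone or within it in 19 of the 22 promoters of the list (86.4%). The whole element stood in 9 of the 22 (40.9%), Hspa5, Hsp90b1, Calr, Canx, Pdia6, Dnajc3, Syvn1, Creld2 and Derl3, and in 19 of all 9909 promoters (0.192%). Of the 9, 7 were called lower in TCDCA than in UDCA (Dnajc3 in 1 and Creld2 in 4 of the 6 fits without a library), and none of the 10 genes outside the list was called lower. Hsp90b1 also held 1 match to TCACNCCAC, which is left in lower case.

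Hsp90b1, the HSP90 chaperone of the ER, had 1040, 1100 and 1090 CPM in TCDCA, 1410, 1400 and 1390 in UDCA and 1160, 1200 and 1230 in Control. TCDCA lay below Control and UDCA above it in every library, a log2 difference of -0.38 ± 0.04 between the acids (adjusted p = 1.2e-06). Hspa5, the master ER chaperone BiP, had 703, 738 and 724 CPM in TCDCA, 884, 905 and 887 in UDCA and 695, 712 and 743 in Control (-0.31 ± 0.05, adjusted p = 7.84e-05). Here TCDCA overlapped Control, and it did so in the calcium-binding chaperone Calr too, at 1050 to 1090 CPM in TCDCA, 1320 to 1410 in UDCA and 992 to 1070 in Control (-0.35 ± 0.04, adjusted p = 7.87e-06).

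The disulfide isomerases Pdia6, Pdia3 and P4hb were lower in TCDCA by 0.39, 0.28 and 0.22 (log2 fold changes -0.39, -0.28 and -0.22, adjusted p = 1.11e-05, 0.00111 and 0.00241). P4hb was below Control in TCDCA (-0.29, adjusted p = 8.91e-05) and not called in UDCA (-0.06, adjusted p = 0.343). The transcription factor Xbp1 and the degradation factor Herpud1 did not pass (-0.07, 95% interval -0.19 to 0.05, and 0.09, interval -0.01 to 0.18), while the sensor Atf6 was lower (-0.17 ± 0.04, adjusted p = 0.00639). Cytosolic heat shock genes had 3 of 19 tested members lower in TCDCA and 0 higher, against 3.87% lower among all tested genes. The 3 were Hsp90ab1 (-0.18), Hsph1 (-0.23) and Hspe1 (-0.20), which encode a cytosolic HSP90, a nucleotide exchange factor of HSP70 and a mitochondrial co-chaperonin. TCDCA had 3 members of that list above Control and UDCA 9, with 5.08% and 9.18% of all tested genes higher.

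The integrated stress response, in which the transcription factor ATF4 raises amino acid and survival genes, had 11 of 41 tested members higher in TCDCA than in UDCA and 0 lower, against 3.54% higher among all tested genes, with a median of 0.11. TCDCA had 5 members below Control and 3 above (8.04% and 5.08% of all tested genes), and UDCA had 19 below and 1 above (10.7% and 9.18%). The count of 11 fell to 7 in 5 of the 6 fits without 1 library and to 5 without UDCA replicate 2. Atf4 itself had 445, 463 and 458 CPM in TCDCA, 372, 350 and 378 in UDCA and 421, 474 and 496 in Control (0.31 ± 0.05, adjusted p = 0.000507). Trib3, a pseudokinase that feeds back on ATF4, had 63.8 to 65.7 CPM in TCDCA, 43.1 to 45.5 in UDCA and 64.2 to 73.6 in Control (0.56 ± 0.08, adjusted p = 2.93e-05). In both genes UDCA lay below all the other libraries.

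Ddit3, the pro-apoptotic factor CHOP, had 15.1, 16 and 15.5 CPM in TCDCA, 11.8, 11.2 and 10.8 in UDCA and 17, 20.1 and 17.3 in Control (0.47 ± 0.10, adjusted p = 0.00535). The stress-induced chromatin protein Nupr1 differed by 0.68 ± 0.14 (adjusted p = 0.00332) and Atf5, a related factor, by 0.46 ± 0.09 (adjusted p = 0.00114). Atf5 was called higher in TCDCA than in Control (0.30, adjusted p = 0.0171) and not called in UDCA (-0.15, adjusted p = 0.233). The amino acid response element TGATGNAAT stood in 4 of the 31 promoters of this list (Nupr1, Pycr1, Aars and Gars) and in 47 of all 9909 (0.474%), with 2 of the 4 called higher, Nupr1 and Pycr1, the second in 1 of the 6 fits without a library.

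Oxygen-regulated genes were below Control with both acids and differed little between them. Of 24 tested hypoxia response genes outside glycolysis, 21 were below Control with TCDCA (median -0.64), and 21 were below and 1 above with UDCA (median -0.57), where 8.04% and 10.7% of all tested genes were lower. Between the acids 2 were higher and 2 lower in TCDCA (3.54% and 3.87% of all tested genes), with a median of -0.06. For 21 of the 24 the interval of that difference lay within 1.5-fold. Of 25 glycolysis genes, 21 were below Control with TCDCA (median -0.45) and 22 with UDCA (median -0.38). Between the acids 2 were lower, Gapdh and Pfkl, whose calls were kept in 0 and 1 of the 6 fits without a library, and 0 were higher, and 23 of 25 intervals lay within 1.5-fold. Both acids are set against the same 3 Control libraries, so the counts against Control are not independent of each other.

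Ndrg1, a stress protein that low oxygen induces, had 46.8, 44.4 and 45.4 CPM in TCDCA, 53.8, 44.7 and 47.3 in UDCA and 94.5, 117 and 92.9 in Control. The acids overlapped, with a difference of -0.09 (95% interval -0.33 to 0.14, adjusted p = 0.715), and both lay below every Control library. The collagen prolyl hydroxylase P4ha2 had 4.93, 4.41 and 5.22 CPM in TCDCA, 7.38, 5.35 and 7.03 in UDCA and 16.3, 23.5 and 17 in Control, a difference between the acids of -0.44 (interval -0.88 to 0.01). Nrn1, a neuritin gene also expressed in T cells, had 31.7 to 34.2 CPM in TCDCA, 31.9 to 37.1 in UDCA and 67.4 to 83.3 in Control (difference between the acids -0.08, interval -0.28 to 0.13). Vldlr, a lipoprotein receptor gene outside these lists that low oxygen is known to induce, was among the 5 largest falls with both acids, at 3.18 to 3.47 CPM in TCDCA, 3 to 4.41 in UDCA and 11.6 to 16.5 in Control. Its interval between the acids, -0.74 to 0.41, left a difference beyond 1.5-fold possible.

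Aldoc, an aldolase of the glycolysis list, had 21.6, 18.9 and 23.4 CPM in TCDCA, 16.8, 13.6 and 18.2 in UDCA and 42.5, 51.8 and 41.3 in Control (0.40 ± 0.12 between the acids, adjusted p = 0.0507). It did not pass between the acids, and both lay below Control. Kdm3a, a histone demethylase, and Mxi1, a Myc antagonist, were lowered less by TCDCA (0.27 ± 0.04 and 0.22 ± 0.07 between the acids, adjusted p = 9.57e-05 and 0.0391). P4ha1, a prolyl hydroxylase subunit, was lowered more (-0.31 ± 0.05, adjusted p = 0.000501), as was Ankrd37 (-0.33, adjusted p = 0.0421), whose call was lost in each of the 6 fits that left out a library. Mxi1 kept its call only without UDCA replicate 3.

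**Figure D4:**
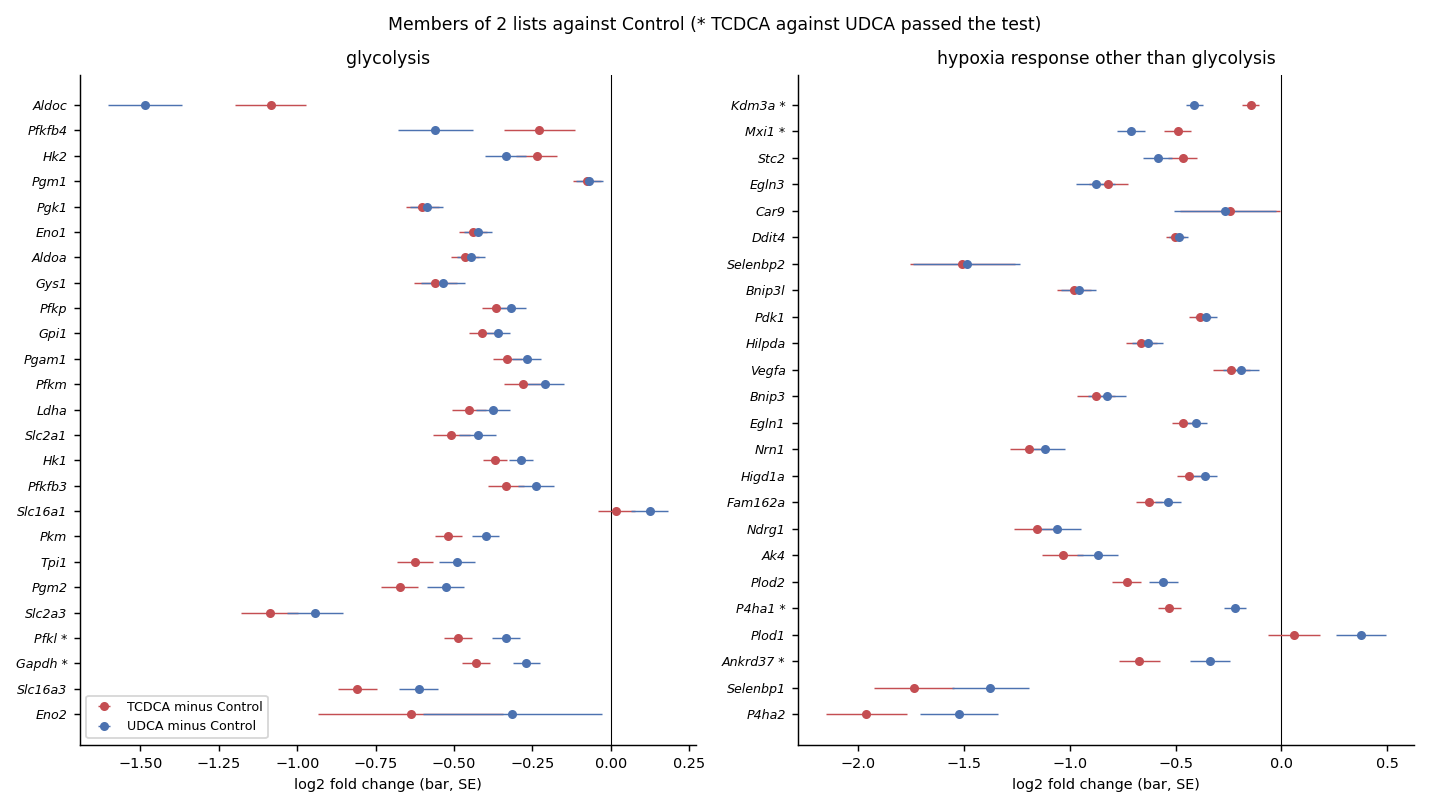
Log2 fold change against Control (horizontal axis, bars are SE) of the 25 glycolysis genes (left) and the 24 other hypoxia response genes (right), for TCDCA in red and UDCA in blue, with a star where TCDCA against UDCA passed the test. Nearly all points of both acids lie below 0, and the red and blue points of a gene lie close together.

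Cytokine and chemokine genes differed in both directions. Of 17 tested members 5 were higher and 4 lower in TCDCA than in UDCA (3.54% and 3.87% of all tested genes). Xcl1 (chr1:164931648-164935510), a chemokine that draws cross-presenting dendritic cells, had 1.22, 1.35 and 0.876 CPM in TCDCA, 4.05, 4.9 and 2.17 in UDCA and 1.05, 0.744 and 0.691 in Control. UDCA stood above all other libraries, and TCDCA was lower than UDCA by 1.70 ± 0.27 (log2 fold change -1.70, adjusted p = 0.000162). Ifng, the effector cytokine interferon gamma, followed the same order at low level, with 4.99, 4.63 and 4 CPM in TCDCA, 6.96, 8.17 and 7.45 in UDCA and 3.56, 5.48 and 4.25 in Control (-0.73 ± 0.16, adjusted p = 0.00573). The chemokine Ccl3 had 2.02 to 2.08 CPM in TCDCA, 3.33 to 3.42 in UDCA and 1.88 to 2.35 in Control (-0.72 ± 0.15, adjusted p = 0.00273).

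The cytokines higher in TCDCA besides Lif were Il24, Lta, Tnf and Il16. Il24 had 4.25, 3.86 and 4.94 CPM in TCDCA, 1.99, 1.39 and 2.38 in UDCA and 2.2, 2.57 and 3.26 in Control (1.19 ± 0.19, adjusted p = 0.000228). Tnf had 55.5, 54.2 and 53.8 CPM in TCDCA, 45.7, 44.9 and 50.8 in UDCA and 39, 35.7 and 39.5 in Control, so both acids lay above Control. Its difference between the acids was 0.21 ± 0.07 (adjusted p = 0.0492) and passed the test in 1 of the 6 fits without a library. The lymphotoxin gene Lta differed by 0.44 ± 0.11 (adjusted p = 0.0136) and lost its call without UDCA replicate 1 or without UDCA replicate 2 (0.33).

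Of 24 tested cytotoxic effector genes 2 were higher and 1 lower, with a median of 0.01, where 3.54% and 3.87% of all tested genes were higher and lower. The list's share of calls is thus near that of all genes. Gzmb, the serine protease that kills target cells, had 3960, 4150 and 3860 CPM in TCDCA, 3050, 3000 and 3570 in UDCA and 3610, 3700 and 4040 in Control (0.32 ± 0.09, adjusted p = 0.0219). UDCA replicate 3 was the UDCA library nearest the others, and the call was lost without UDCA replicates 1 or 2 or TCDCA replicates 1 or 2. Fasl, the death ligand, had 26.9 to 27.7 CPM in TCDCA, 21.7 to 23.2 in UDCA and 19.5 to 21 in Control (0.27 ± 0.05, adjusted p = 0.00125). Prf1, the pore-forming protein, did not pass (-0.06, 95% interval -0.28 to 0.17) and was below Control with both acids, by -0.60 and -0.55. Stx11, which helps granules fuse, was lower in TCDCA (-0.30, adjusted p = 0.0237), a call kept in 2 of the 6 fits without a library.

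T cell receptor-induced genes split evenly, with 5 of 29 higher and 5 lower in TCDCA and a median of 0.00. Among all tested genes 3.54% were higher and 3.87% lower. Beside Egr2 and Egr3, Nr4a3 (-0.36 ± 0.07, adjusted p = 0.00209), Nfkbia (-0.43 ± 0.08, adjusted p = 0.000779) and Relb (-0.34 ± 0.10, adjusted p = 0.026) were lower. These encode an orphan nuclear receptor, an inhibitor of NF-kappaB and an NF-kappaB subunit. Dusp6 and Spred1, feedback inhibitors of the ERK pathway, were higher by 0.43 ± 0.06 and 0.43 ± 0.08 (adjusted p = 6.62e-05 and 0.000742), and so were Myc by 0.36 ± 0.07 (adjusted p = 0.00115), Fosl2 by 0.28 and Cd69 by 0.25. The Fosl2 call was kept in 1 of the 6 fits without a library, and those of Cd69 and Relb in 2. Dusp6 had 48, 52.1 and 55.2 CPM in TCDCA, 39.4, 36.1 and 39.9 in UDCA and 54.4, 58.5 and 57.1 in Control.

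Naive and memory T cell genes had 5 of 24 members lower in TCDCA and 2 higher, against 3.87% and 3.54% of all tested genes. Slamf6, S1pr1, Klf2 and Cd28 were among those lower, and Foxp1 and Bcl2 were higher. Of these, Klf2 kept its call in 1 of the 6 fits without a library, Bcl2 in 3 and S1pr1 in 5. Cd28, the costimulatory receptor, had 175 to 187 CPM in TCDCA, 205 to 261 in UDCA and 226 to 248 in Control (-0.41 ± 0.08, adjusted p = 0.00287). Tcf7, a factor of memory and stem-like T cells, had 121, 112 and 109 CPM in TCDCA, 157, 172 and 102 in UDCA and 121, 116 and 118 in Control. It did not pass (-0.33, 95% interval -0.61 to -0.06, adjusted p = 0.14), and its UDCA replicate 3 was the lowest of the 9 libraries. Il7r, the interleukin-7 receptor, did not pass either (0.05, interval -0.07 to 0.16).

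Homing receptors had 1 of 19 members higher and 3 lower, where 3.54% and 3.87% of all tested genes were higher and lower. Cxcr4, a chemokine receptor, had 31.7, 31.3 and 30.5 CPM in TCDCA, 45.2, 47.3 and 40.6 in UDCA and 46.9, 54.3 and 48.6 in Control (-0.51 ± 0.08, adjusted p = 0.000131). Ccr2 was higher (0.42 ± 0.09, adjusted p = 0.0034), while the gut-homing integrin gene Itgb7 did not pass (-0.01, 95% interval -0.11 to 0.09). The gut-homing receptor Ccr9 reached at most 7 counts in any of these 9 libraries and was not tested. Inhibitory receptor genes had 4 of 17 members lower and 0 higher, against 3.87% lower among all tested genes. Cd160 had 31.5, 33.2 and 28.1 CPM in TCDCA, 44.2, 49.8 and 37 in UDCA and 26.1, 22.5 and 23.5 in Control (-0.50 ± 0.10, adjusted p = 0.00179), so both acids lay above Control and UDCA lay highest. Lair1, Btla and Tox had small differences (-0.26, -0.26 and -0.21), each kept in at most 2 of the 6 fits without a library, and Pdcd1, which encodes PD-1, did not pass (-0.14, 95% interval -0.33 to 0.06).

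The cAMP response list, cAMP being the messenger that the bile acid receptor TGR5 raises, had 6 of 24 members lower and 1 higher. Among all tested genes 3.87% were lower and 3.54% higher. Beside Rgs16 and Nr4a3, the phosphodiesterase Pde3b was lower (-0.30 ± 0.05, adjusted p = 0.000619), with 151 to 157 CPM in TCDCA, 177 to 203 in UDCA and 167 to 174 in Control. The adenosine receptor Adora2a was lower too (-0.34 ± 0.07, adjusted p = 0.0038), and the kinase Sik1 was higher (0.24 ± 0.05, adjusted p = 0.00263). Crem and Ptger4 were also lower, with calls kept in 0 and 2 of the 6 fits without a library. The TGR5 gene Gpbar1 and the FXR gene Nr1h4 each had 1 count in TCDCA replicate 1 and 0 in the other 8 libraries. In those 8 libraries a count of 0 allows up to 3 counts, or 0.0805 to 0.104 CPM by library (counting error only). The vitamin D receptor gene Vdr had 2.78 to 3.77 CPM in TCDCA, 2.41 to 3.23 in UDCA and 2.23 to 3.16 in Control, a difference that did not pass (0.20, 95% interval -0.12 to 0.53).

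In the list of bile acid receptors, targets and transporters, 5 of 15 tested genes were lower in TCDCA and 1, Rxrb, was higher. The shares of all tested genes were 3.87% lower and 3.54% higher. Abcb1b, an efflux pump of the P-glycoprotein type, had 82.8, 78.3 and 80.3 CPM in TCDCA, 106, 108 and 103 in UDCA and 81.5, 80.1 and 82.8 in Control. TCDCA overlapped Control, and UDCA stood above both in every library (-0.39 ± 0.04 between the acids, adjusted p = 4.41e-08). Its paralog Abcb1a had the same order (-0.26 ± 0.07, adjusted p = 0.0148). The pump Abcg2 (-0.23), the transporter Slco3a1 (-0.20) and the retinoid X receptor Rxra (-0.26) were also lower, with adjusted p of 0.0339, 0.0164 and 0.022. Of the 6 fits without a library, 1 kept the Abcg2 call, 2 that of Rxra, 3 those of Abcb1a and Slco3a1 and 4 that of Rxrb, and the Slco3a1 call was also lost with the compared groups alone.

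Of 15 tested genes of taurine transport and osmotic response, 3 were higher and 1 lower in TCDCA (3.54% and 3.87% of all tested genes). The median log2 fold change of the list was -0.09, and 5 of the 15 members had a positive value. The taurine transporter Slc6a6 had 233, 233 and 234 CPM in TCDCA, 216, 213 and 212 in UDCA and 221, 209 and 230 in Control. Its difference of 0.13 ± 0.04 (adjusted p = 0.0242) lost its call in each of the 6 fits without a library. Slc38a2, an amino acid transporter that hypertonic stress induces, differed by 0.24 ± 0.04 (adjusted p = 0.000391) and the kinase Sgk1 by 0.33 ± 0.08 (adjusted p = 0.0074). Lrrc8a, a subunit of the volume-regulated anion channel, was lower (-0.20, adjusted p = 0.0281), a call kept in 2 of the 6, and the Sgk1 call was lost without UDCA replicate 2 (0.27).

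Of 14 tested genes of metallothioneins and zinc transport, 2 were higher and 3 lower (3.54% and 3.87% of all tested genes). The metal-binding metallothioneins Mt1 and Mt2 were lower in TCDCA by 0.30 ± 0.06 and 0.42 ± 0.08 (log2 fold changes -0.30 and -0.42, adjusted p = 0.00319 and 0.000909). Mt2 had 53, 58.2 and 46.9 CPM in TCDCA, 73.9, 72.6 and 64.3 in UDCA and 65.7, 71.8 and 61.8 in Control, so TCDCA lay below every Control library while UDCA overlapped Control. Reads of these paralogs may have been divided between them. Of 31 tested antioxidant genes 3 were higher and 1 lower, against 3.54% and 3.87% of all tested genes. Osgin1, an oxidative stress response gene, had 1.57 to 1.99 CPM in TCDCA, 0.735 to 1.14 in UDCA and 2.13 to 2.97 in Control (0.98 ± 0.21, adjusted p = 0.00348). The calls of Fth1 and Prdx6, also higher, were kept in 0 and 1 of the 6 fits without a library. That of Ftl1, the 1 lower, was kept in 2. The NRF2 targets Hmox1 and Nqo1 did not pass (95% intervals -0.42 to 0.11 and -0.30 to 0.44).

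In the list of lamina and cytoskeleton genes Lmna was the 1 member higher, and 4 of 26 were lower. Of all tested genes, 3.54% were higher and 3.87% lower. The actin gene Actg1 had 1930, 1960 and 1880 CPM in TCDCA, 2510, 2450 and 2240 in UDCA and 1990, 1990 and 2070 in Control (-0.32 ± 0.05, adjusted p = 0.000316), and the actin cross-linker Flna was lower by 0.27 ± 0.04 (log2 fold change -0.27, adjusted p = 0.000219). Interferon-stimulated genes had 5 of 38 members higher and 1 lower (3.54% and 3.87% of all tested genes), with a median of -0.05. Those higher were led by the guanylate-binding protein Gbp4 (0.44 ± 0.06, adjusted p = 1.99e-05). Ifi44 was lower (-1.52, adjusted p = 0.0237), at 0.0306 to 0.219 CPM in TCDCA and 0.294 to 0.424 in UDCA. Of the 6 fits without a library, 5 kept the Oas3 call and 3 those of Iigp1, Ifi35, Irf1 and Ifi44. Antigen presentation genes had 5 of 19 members lower and 0 higher, against 3.87% lower among all tested genes. H2-T23, a nonclassical MHC class I gene, was among the 5 (-0.26 ± 0.05, adjusted p = 0.00286) and was called in all 6 fits without a library. Of those fits, 5 kept the H2-K1 call, 3 that of B2m, 2 that of Cd74 and 1 that of H2-D1. The Cd74 libraries of the 2 acids overlapped. The lysosomal cholesterol transporter Npc1 was among 4 of 37 lysosome and autophagy genes that were lower (-0.22 ± 0.04, adjusted p = 0.000286), and 1 was higher. Shares over all tested genes were 3.87% lower and 3.54% higher.

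Growth and division genes differed little between the acids, where 7.41% of all tested genes were called. Of 30 S phase genes 1 was called (Tyms, 0.14), and for each of these and of the 32 genes of G2 and M phase the interval lay within 1.5-fold. Of 29 ribosome biogenesis and Myc target genes 1, Myc, was called, and of 51 respiratory chain genes 1 was, Ndufs1 (-0.16). The intervals of all of these genes also lay within 1.5-fold. Of 28 p53 target and apoptosis genes 2 were higher and 3 lower (3.54% and 3.87% of all tested genes). Cdkn1a, the cell cycle inhibitor p21, was higher by 0.23 and Bcl2 by 0.20. In the 6 fits without a library the Cdkn1a call was kept in 1, those of Bcl2 and Ndufs1 in 3 and that of Tyms in 0.

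Marker lists of other cell types were set beside these results, with 3.54% of all tested genes higher and 3.87% lower in TCDCA. Of 6 tested markers of CD4+ and regulatory T cells, Gata3 (-0.44) and Zbtb7b (-0.20) were lower in TCDCA, and the summed level of the 9 listed genes was 73.2 to 74.8 CPM in TCDCA, 83 to 89.2 in UDCA and 86.3 to 88.1 in Control. Ly6c2, which activated CD8+ T cells also express, was the 1 of 6 tested myeloid markers called (0.21), and the 15 listed myeloid genes summed to 94.3 to 99.6 CPM in TCDCA, 77.9 to 90.0 in UDCA and 91.9 to 98.9 in Control. None of the tested markers of B cells (2), NK and innate lymphoid cells (8) or stromal and erythroid cells (3) was called. Of 14 tested CD8+ T cell markers Cd5 (-0.16) and Tbx21 (-0.18) were lower, and of 16 early genes of cell dissociation and stress 2 were higher (Atf3 and Jun) and 1 lower (Nfkbia). Without 1 library the Atf3 call was lost in each of the 6 fits and the Jun call in 5, and the Jun call was also lost with the GC and length correction. The Cd5 and Tbx21 calls were each kept in 1 of the 6, those of Zbtb7b and Ly6c2 in 2. The part of other cells in the results above was not tested.

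**Figure D5:**
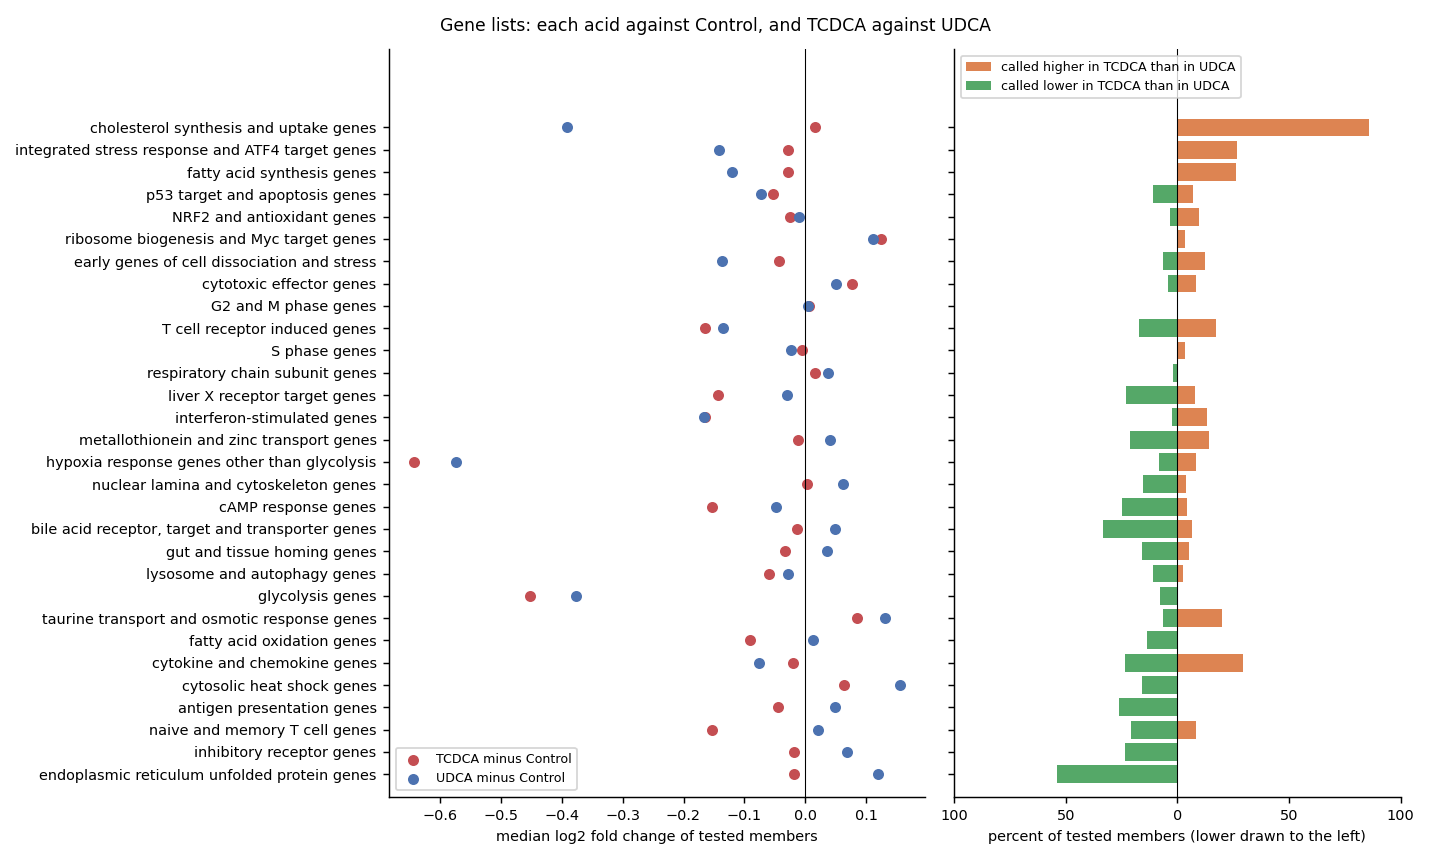
Left, median log2 fold change against Control over the tested members of each gene list other than the cell type markers, for TCDCA in red and UDCA in blue. Right, percent of tested members called higher (orange) or lower (green) in TCDCA than in UDCA. The cholesterol list has the widest gap between red and blue, and the hypoxia and glycolysis lists lie far left for both acids.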

How the data were processed

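RNA-seq libraries of mouse CD8+ T cells activated in culture were used, 24 in 8 groups of 3. The authors deposited 1 table of estimated counts per gene, which per the file headers was made with HOMER's analyzeRepeats over exons of mm10, with transcripts condensed to genes and no normalization. STAR, GRCm38 and DESeq2 also appear in the submitters' processing notes, and versions and the strand setting are not given in the sources used here. The deposited counts came in steps of 0.5 (29.4% of values were not whole) and were rounded up to whole numbers, although whole counts had been assumed when the tests were chosen. The submitters' libraries held 25998051 to 41024340.5 counts in genes.

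All 24 libraries were fitted in edgeR 4.0.16 (R 4.3.3, limma 3.58.1) with filterByExpr, TMM and 1 coefficient per group, and the quasi-likelihood test was adjusted by Benjamini-Hochberg over 13044 tested genes of 24537. Standard errors are the log2 fold change divided by the square root of F, and intervals are 95% intervals at the total degrees of freedom. The biological coefficient of variation was 4.41%. CPM are computed here with TMM library sizes and are not scaled by gene length. A count of 0 allows 3 counts.

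Named genes were the first 12 in each direction by fold change among called genes of at least 10 CPM in either group with no overlap and an established symbol, the 5 largest each way for each acid against Control, the 4 smallest adjusted p of each list with 3 or more calls, and a fixed set. Further list members are named outside this rule to complete a list's count or pathway, and were chosen after their values were seen. The members, lists and rules were chosen with earlier results of these data known. Alternatives were DESeq2 1.42.0, its size factors, no filter, a replicate block, the compared groups alone, a GC and length correction (chosen after seeing the data, as were the list counts under each setting) and leaving out each library. The paralog pairs Ccl3 and Ccl4, H2-D1 and H2-K1, Abcb1b and Abcb1a, and Mt2 and Mt1 may share reads and are uncertain, as are genes with overlapping or antisense partners. The fitting procedure was tested on simulated data. Some genes of the lists are counted but not reported here by name.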

Additional observations from a re-analysis of the deposited data

How the results depend on the processing

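The count of genes called between TCDCA and UDCA ran from 494 to 1055 over the fits that left out 1 library, and the count beyond 1.5-fold from 57 to 127. The other fits called 948 genes with DESeq2's size factors, 863 with no filter on low counts, 1150 with the compared groups alone, 1010 with DESeq2 and 1108 with the GC and length correction. Against Control, leaving out 1 library gave 898 to 1628 genes for TCDCA and 1692 to 2219 for UDCA. Members of the integrated stress response list called higher numbered 5 to 7 without 1 library. The fits that left out a library had fewer samples, and no other cause was tested. Cholesterol members called numbered 21 to 24 and ER members 11 to 15 over every fit run.

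The difference in exon share, -0.0783 percentage points, ran from -0.87 to 0.624 without 1 library and was positive without TCDCA replicate 1 (0.011), TCDCA replicate 3 (0.624) or UDCA replicate 2 (0.392). Signs also turned for 3 genes that did not pass, Prf1 (0.043 without TCDCA replicate 1, 0.023 without UDCA replicate 3, range -0.123 to 0.043), Nqo1 (-0.026 without TCDCA replicate 1, range to 0.206) and Itgb7 (0.007, 0.028 and 0.013 without TCDCA replicate 3, UDCA replicate 1 and UDCA replicate 2, range -0.062 to 0.028). Of 117 named genes called, 70 were called in all 6 fits without 1 library and 108 in every other fit, and 18 of the 24 largest rises and falls were called in all 6.

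TCDCA and UDCA libraries of the same replicate number correlated by 0.0554, 0.0803 and 0.127 in their deviations from group means. With libraries of other numbers the mean values were -0.0236, -0.0344 and -0.0735, so the same-number values were higher, though small. The labels state no pairing, the main fit used none, and whether the numbers mark shared cultures was not tested. With the replicate block 1109 genes were called between the acids, 1920 between TCDCA and Control and 2813 between UDCA and Control. Genes near or under 1 CPM had wide intervals, so differences there were often not detectable at this depth.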

Other observations

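Genes under 10 CPM in both acids, which the rule for the largest changes left out, held 122 called genes with no overlap and an established symbol, 69 higher and 53 lower in TCDCA. Etv4, an ETS transcription factor that ERK signals are known to induce, had 2.02, 2.57 and 2.78 CPM in TCDCA, 0.784, 1.3 and 0.805 in UDCA and 3.19, 3.35 and 3.42 in Control (1.33 ± 0.23 log2 units between the acids, edgeR adjusted p = 0.000511). UDCA lay lowest and Control highest, without overlap, though TCDCA was not called against Control (-0.44, adjusted p = 0.121). Dtx1, a regulator of Notch signalling, had 0.653, 0.889 and 0.563 CPM in TCDCA, 1.86, 2.3 and 1.5 in UDCA and 0.991, 0.868 and 0.635 in Control (-1.43 ± 0.27, adjusted p = 0.000969). The UDCA libraries lay above all others. Sema3c, a secreted semaphorin, had 0.153 to 0.25 CPM in TCDCA, 0.514 to 0.63 in UDCA and 0.249 to 0.589 in Control (-1.58 ± 0.33, adjusted p = 0.00266), so TCDCA and UDCA did not overlap while Control overlapped both.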
